A study of Homo sapiens with 4 samples.

Results

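The clustered protocadherin locus on the long arm of chromosome 5 was examined by methylated DNA immunoprecipitation and sequencing (MeDIP-seq) in C42B cells, a line of prostate cancer cells descended from LNCaP that grows without androgen. Its members were the methylated regions ("peaks") that the authors' caller listed on chromosome 5 between 140150 and 140900 kb of hg19, a window of 750 kb set by position and chosen with earlier results of these data known. They numbered 19 of 558178 peaks in all, which were 5 of the 261657 control peaks and 14 of the 296521 knockout peaks. The control cells carried a control guide RNA, sgC (WT), and the knockout cells a guide against the atypical protein kinase C PKCλ/ι, labelled PKCl/i KO (sgPKCl/i). Both were untreated and harvested 48 h after plating, and each genotype gave 1 input library and 1 library immunoprecipitated with an antibody against 5-methylcytosine. With 1 library per group, no difference between the genotypes has a replicate check and no test between them was made. Whether the knockout was a clone or a pool was not given in the sources used here, and peak lists hold no expression by which the cell line or the loss of the kinase could be checked.

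Clustered protocadherins are cell adhesion proteins of the cadherin superfamily, best known from neurons, where each cell expresses its own combination and so acquires a surface identity. The genes stand in 3 tandem groups called alpha, beta and gamma. In alpha and gamma each variable exon has its own promoter and is spliced to constant exons shared by the group, while the beta genes have no shared constant exons. The factor CTCF and cohesin act at many of these promoters, and methylation of the promoters goes with their silence.

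The RefSeq table (GRCh38.p14) listed 53 protein-coding genes in this family, of which 15 were alpha, 16 beta and 22 gamma. In the order of that table SLC25A2, a mitochondrial ornithine carrier, and TAF7, a subunit of the general transcription factor TFIID, lie between beta and gamma, and DIAPH1, a formin that nucleates actin, follows gamma. The table's build differs from that of the peaks, so no gene was given a position among the peaks. Alpha, beta and gamma below are position ranges of hg19, 140150 to 140400, 140420 to 140630 and 140700 to 140900 kb, and which exon or promoter a peak covers was not determined.

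CpG sites were counted in the promoters alone, not in the exons or the rest of the window. The antibody binds 5-methylcytosine, which in mammalian DNA lies mainly at CpG sites. Enrichment in this assay rises with the number of methylated CpG sites in a fragment. Whether promoter CpG content bears on the number of peaks in the window was not tested. The 250 bases before the start of 5 genes are given 5′ to 3′ on the plus strand, with each CpG in capitals. The first 3 are ordinary members, 1 from each group, and the last 2 are C-type members, PCDHAC2 and PCDHGC3, which stand near the constant exons. These 2 were named by gene in the plan and not by their CpG count. The sequences are from RefSeq (GRCh38.p14), at chr5:140785890-140786139, chr5:141245145-141245394, chr5:141330264-141330513, chr5:140966226-140966475 and chr5:141475716-141475965, in the order printed.
PCDHA1: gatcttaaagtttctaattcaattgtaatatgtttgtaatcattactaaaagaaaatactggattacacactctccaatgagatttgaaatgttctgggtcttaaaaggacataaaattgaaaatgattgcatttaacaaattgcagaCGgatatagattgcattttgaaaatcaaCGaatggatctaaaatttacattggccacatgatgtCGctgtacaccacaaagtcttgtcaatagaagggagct
PCDHB15: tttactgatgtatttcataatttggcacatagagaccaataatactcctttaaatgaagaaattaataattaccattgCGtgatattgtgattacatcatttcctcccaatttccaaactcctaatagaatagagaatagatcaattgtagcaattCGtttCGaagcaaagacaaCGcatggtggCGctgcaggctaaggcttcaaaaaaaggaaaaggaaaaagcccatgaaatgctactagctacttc
PCDHGA1: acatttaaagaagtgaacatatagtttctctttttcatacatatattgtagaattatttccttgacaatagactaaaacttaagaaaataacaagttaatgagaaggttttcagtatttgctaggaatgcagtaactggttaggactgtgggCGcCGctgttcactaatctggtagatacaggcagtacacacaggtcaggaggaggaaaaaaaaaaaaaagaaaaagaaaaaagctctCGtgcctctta
PCDHAC2: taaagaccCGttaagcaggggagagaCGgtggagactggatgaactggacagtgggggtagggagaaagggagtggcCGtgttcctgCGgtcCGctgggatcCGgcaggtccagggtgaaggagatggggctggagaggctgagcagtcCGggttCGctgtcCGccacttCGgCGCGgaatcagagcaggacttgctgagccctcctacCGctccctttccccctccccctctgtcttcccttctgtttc
PCDHGC3: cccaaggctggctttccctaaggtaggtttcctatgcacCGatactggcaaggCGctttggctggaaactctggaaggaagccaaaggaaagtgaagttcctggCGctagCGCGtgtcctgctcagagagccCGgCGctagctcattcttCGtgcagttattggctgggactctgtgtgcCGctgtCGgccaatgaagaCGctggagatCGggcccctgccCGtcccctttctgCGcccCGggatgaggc
The printed stretches of PCDHA1 and PCDHGA1 held 3 CpG sites each and that of PCDHB15 held 5. Those of PCDHAC2 and PCDHGC3 held 13 and 15.

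Most clustered protocadherin promoters held few CpG sites. Promoters of 300 bases (250 before the start and 50 after it) were found for 47 of the 53 genes, and the C-type gene PCDHGC5 was not among them. More than 1 promoter was listed for 5 of the 20 gamma genes and for 5191 of all genes, and the first was used. The median of the 47 was 7 CpG sites, against 14 over 27305 RefSeq promoters, whose quartiles were 3 and 28. Relative to base composition they were about as depleted as promoters in general: the median ratio of observed to expected CpG was 0.593, against 0.580 over all promoters. Median GC content was 39.7% against 58.3%. The medians of the groups were alike, at 7 for alpha (range 3 to 27), 7.5 for beta (5 to 12) and 7 for gamma (2 to 23). The ordinary members printed above lay below these, with 4 sites for PCDHA1, 6 for PCDHB15 and 4 for PCDHGA1. At least 10 CpG sites were present in 14 of the 47 (29.8%), against 56.0% of all promoters, and these 14 were 2 of 13 alpha, 4 of 14 beta and 8 of 20 gamma promoters. The highest counts were those of the C-type genes PCDHAC1 with 27 sites, PCDHGC4 with 23 and PCDHGC3 with 18. PCDHGA4 had the fewest, with 2. The 4 letters CGCT, the core known from the conserved promoter element of this family, were found on either strand in 46 of the 47 promoters and in 69.4% of all RefSeq promoters. These letters contain a CpG, and a match to them is a description of sequence and not a bound site.

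**Figure D1:**
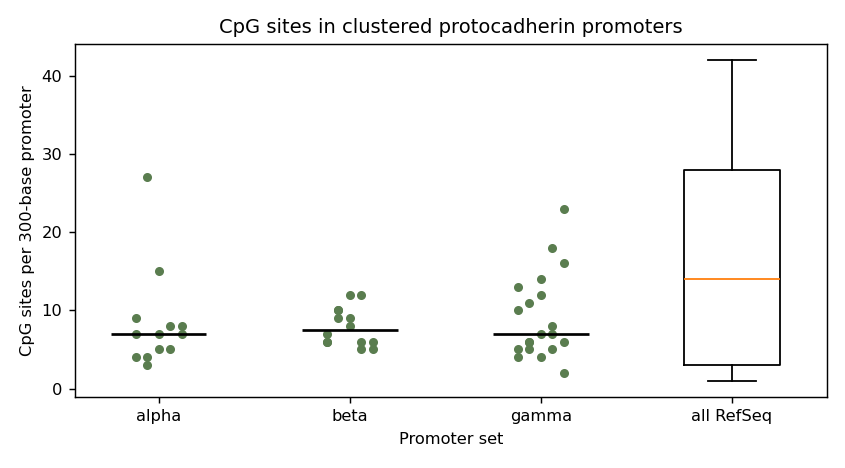
CpG sites per 300-base RefSeq promoter for 13 alpha, 14 beta and 20 gamma protocadherin genes (points, 1 per gene; bars, medians of 7, 7.5 and 7) beside all 27305 RefSeq promoters (box, quartiles 3 and 28 with the median of 14; whiskers, the 5th and 95th percentiles). Most of the protocadherin points lie below the median of all promoters.

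Methylated regions were scarce across the locus and common on both sides of it. The window held 5 control peaks (exact Poisson 95% interval 1.62 to 11.7, counting error only) and 14 knockout peaks (7.65 to 23.5). That was 0.667 and 1.87 peaks per 100 kb, against 6.72 and 8.14 on chromosome 5 as a whole and 8.46 and 9.58 over the genome. Peaks covered 3408 bp of the window in control cells (0.454%) and 6797 bp in the knockout (0.906%), where the chromosome as a whole was covered to 3.62% and 4.56%. The 750 kb before the window held 15.5 control and 20.5 knockout peaks per 100 kb, and the 750 kb after it 18.8 and 20.9. The locus thus had 25.7 times fewer control peaks and 11.1 times fewer knockout peaks than the mean of its flanks. A stretch without a peak is one where the caller found no enrichment, and it is not shown to be unmethylated.

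**Figure D2:**
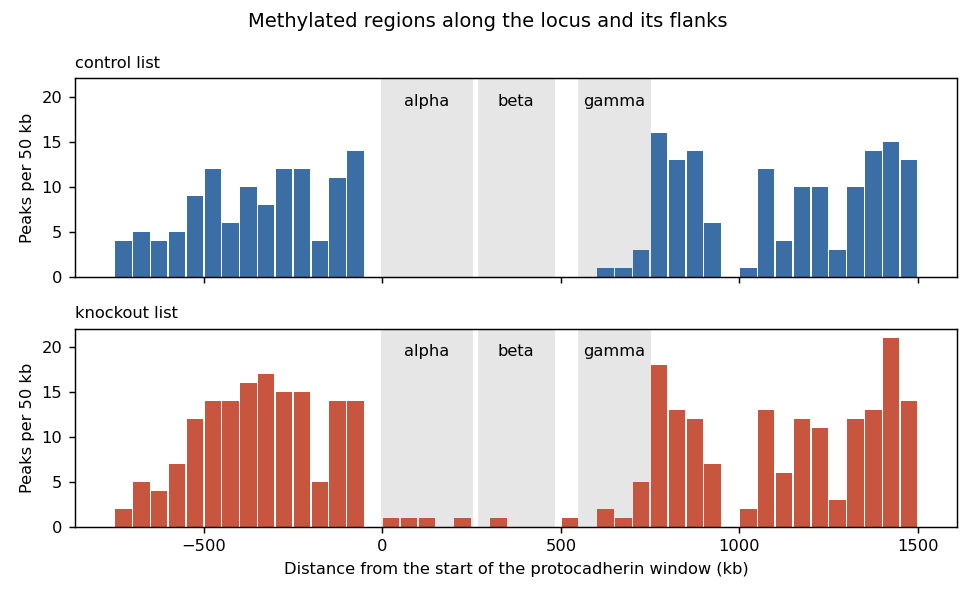
Peaks per 50 kb by summit position, from 750 kb before to 750 kb after the window, in the control list (top) and the knockout list (bottom); grey bands mark the alpha, beta and gamma ranges. Counts reach 16 in the control flanks and 21 in the knockout flanks, and inside the window stay at or below 3 in the control and 5 in the knockout.

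The change in peak number was abrupt on both sides, and the last 50 kb before the window were already empty in both lists. Of the 15 tiles of 50 kb inside the window, 12 were empty in the control and 6 in the knockout, against 2 of the 30 flanking tiles in each list. The median tile held 0 control and 1 knockout peaks inside, and 10 and 12 in the flanks. The control listed no peak from 140099039 to 140756171, a stretch of 657 kb that holds the whole alpha and beta ranges and the first part of gamma. Only 18 of 12156 stretches between control peaks on chromosome 5 were longer, and 332 of 261632 over the genome; these counts include assembly gaps such as the centromere. In the knockout list the longest stretch without a peak was 241 kb, from 140456152 to 140696941, and 86 of 14720 stretches on chromosome 5 were longer. It began in the beta range and ended just before gamma. The next in the knockout were 128 kb, from 140256712 to 140384972 inside alpha, and 70.6 kb, from 140385291 in alpha to 140455845 in beta. As every control peak overlapped a knockout peak, these 3 stretches were also the longest without a peak in either list.

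Sparse windows as such were not rare on chromosome 5. Of 240 consecutive windows of 750 kb on the chromosome, 39 held fewer control peaks than the protocadherin window and 57 held fewer knockout peaks. The medians were 30 control and 39 knockout peaks. Over the genome 842 of 4038 windows (20.9%) held 5 control peaks or fewer, and 1107 (27.4%) held 14 knockout peaks or fewer. A sparse window between dense neighbours was less common, a comparison chosen after the values were seen. On chromosome 5 the protocadherin window was the only 1 in the control with 5 peaks or fewer and at least 100 in each neighbouring window. Over the genome, with windows counted from the start of each chromosome, 446 had such neighbours in the control, and 4 of them held 5 peaks or fewer. The protocadherin window starts elsewhere and is not itself a window of that grid. In the knockout 7 of 554 held 14 or fewer.

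**Figure D3:**
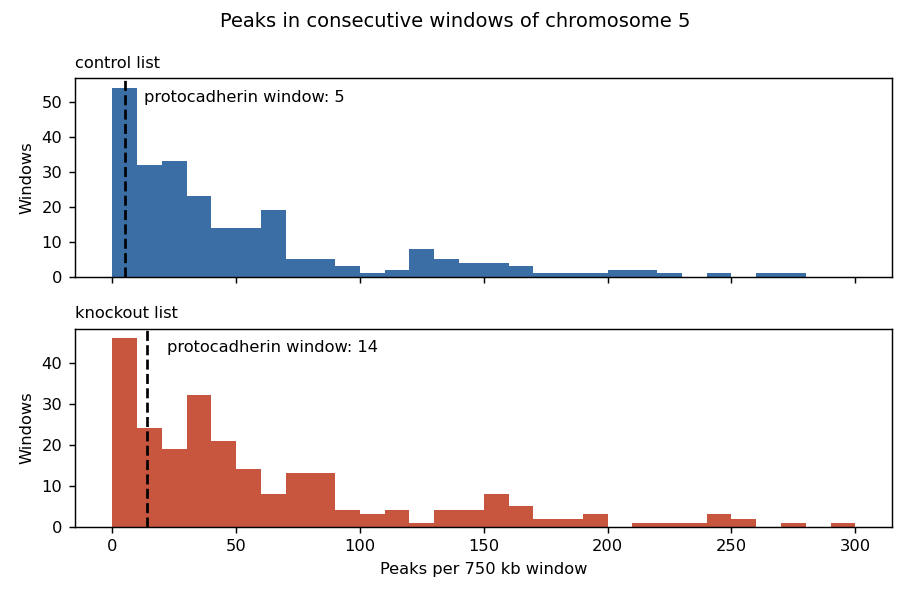
Number of consecutive 750 kb windows of chromosome 5 (240 in each list) by their number of peaks, for the control list (top) and the knockout list (bottom). Dashed lines mark the protocadherin window, at 5 and 14 peaks, in the lower part of both distributions (medians 30 and 39).

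The few peaks were unevenly placed within the locus. All 5 control peaks lay in gamma, which held 2.5 peaks per 100 kb, while alpha, beta and the stretches between the groups held 0. The knockout list had 8 peaks in gamma (4 per 100 kb), 4 in alpha (1.6 per 100 kb), 1 in beta (0.476 per 100 kb) and 1 between beta and gamma. With a fold of at least 5 required, 6 of the 14 were left, 5 in gamma, 1 in alpha and 0 in beta, and 4 of the 5 control peaks. Gamma was thus the group with the most peaks in both lists, and even there the density was 2.69 times below that of chromosome 5 for the control and 2.03 times for the knockout. Summits inside the window were a median of 41.0 kb apart in the control and 41.2 kb in the knockout, against 3.62 and 3.33 kb on the chromosome. The closest control summits were 3.32 kb apart and the closest knockout summits 1.78 kb, both near the distal end of gamma.

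By their medians, the control peaks stood above their list in strength. The knockout peaks stood above theirs in pileup but below it in fold and significance. Pileup, the number of fragments over a summit, is given below also as a multiple of the library's genome-wide mean pileup, 2.92 for the control and 4.42 for the knockout, a ratio of 1.51 taken here as the relative depth, since depths were not listed. The 5 control peaks had a median pileup of 34, or 11.6 times the mean, against 8.55 times for the whole control list. The 14 knockout peaks had a median of 40, or 9.04 times the mean, against 8.14 for the whole knockout list. Median fold was 6.49 for the control members against 5.48 for their list, and 4.61 for the knockout members against 5.35. Median −log10 q was 18.0 against 11.0 for the control, and 11.6 against 15.0 for the knockout. The control peak starting at 140896359 went against its group. Only 13.3% of the control list had a lower pileup, 0.446% a lower fold and 0.580% a lower −log10 q. The knockout members were mostly short, with a median of 359.5 bp and 10 of 14 below the 464 bp median of their list, while the control members had a median of 501 bp against 458 bp. A level in such bulk DNA cannot tell a site methylated in part of the cells or on 1 allele from a site with fewer methylated CpG in all of them.

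**Figure D4:**
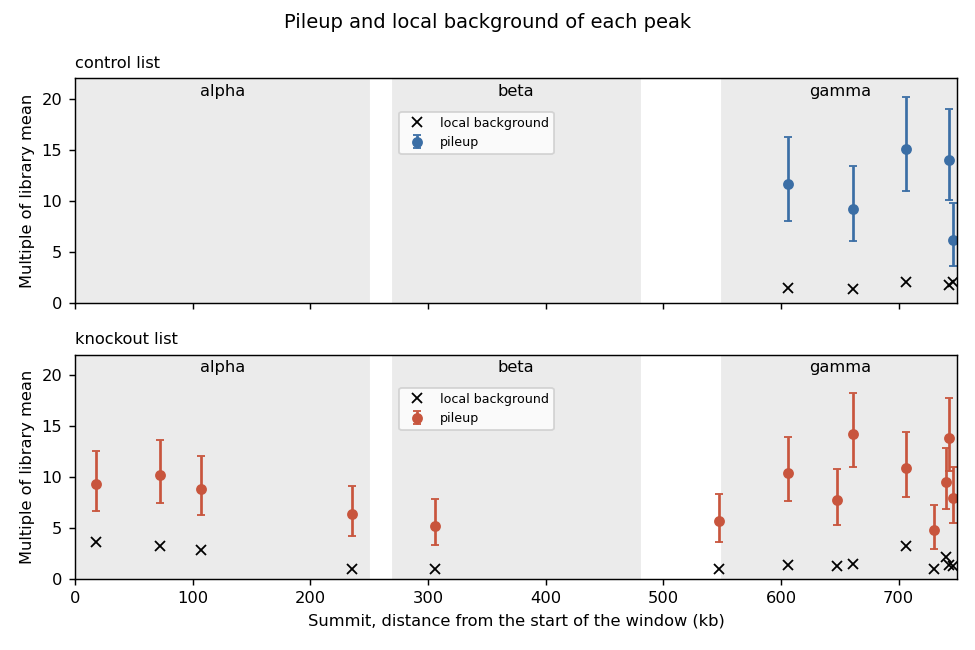
Pileup at the summit of each peak as a multiple of the library mean (circles, with exact Poisson 95% intervals of the count) and its local background on the same scale (crosses), by distance from the start of the window, for the 5 control peaks (top) and the 14 knockout peaks (bottom). Control peaks appear in gamma alone, and the 3 leftmost knockout peaks in alpha stand on raised backgrounds of 2.86 to 3.62 times the mean.

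The 5 regions found in both lists all lay in gamma. The region at 140756172 to 140756598 in the control had a pileup of 34 (23.5 to 47.5) and in the knockout, at 140756185 to 140756608, of 46 (33.7 to 61.4). These were 11.6 and 10.4 times the library means, with summits 9 bp apart and folds of 6.89 and 6.80 in the authors' lists. Here the genotypes lay close together by either measure.

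The region starting at 140810771 in the control and 140810700 in the knockout had pileups of 27 (17.8 to 39.3) and 63 (48.4 to 80.6), or 9.24 and 14.2 times the mean. The knockout was higher by 1.54-fold (0.968 to 2.52, exact interval for counting error), a log2 ratio of 0.62, and this region had the highest pileup of the knockout peaks in the locus. Its background was alike in both lists, at 1.33 and 1.46 times the mean. Of all 206556 pairs of peaks in the genome, 95.8% had a lower ratio. This was the 1 pair of the 5 past 1.5-fold in the upward direction, where the share over all pairs was 5.14%, and its interval reached 1.

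The region starting at 140856249 in the control and 140856275 in the knockout went the other way. Its pileups were 44 (32.0 to 59.1) and 48 (35.4 to 63.6), which were 15.1 and 10.9 times the mean, a ratio of 0.721 (0.469 to 1.11) or -0.47 on the log2 scale. It was the strongest control peak of the locus by pileup. The local background was 2.03 times the mean in control cells against 3.19 times in knockout cells, and the authors' fold of 6.49 stood against 3.24 in the knockout. The part of the background in this difference was not tested. No pair was lower in the knockout by 1.5-fold or more, where the share over all pairs was 3.6%.

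The last 2 shared regions were neighbours at the distal end of the window. The first was the longest peak of the locus in both lists, 1614 bp in the control (140892234 to 140893847) and 1753 bp in the knockout (140892165 to 140893917). Peaks of at least 1500 bp made up 2.86% of the control list and 3.55% of the knockout list. Its pileups of 41 (29.4 to 55.6) and 61 (46.7 to 78.4) were 14.0 and 13.8 times the mean, a log2 ratio of -0.02, so its scaled pileup hardly differed. The authors' folds did differ, at 6.78 in the control and 8.82 in the knockout. The local backgrounds were 1.78 and 1.36 times the mean. The summits lay 664 bp apart, the widest shift among the 5 pairs. The second, starting at 140896359 in the control and 140896339 in the knockout, was the weakest control peak, with a pileup of 18 (10.7 to 28.4) against 35 (24.4 to 48.7). Scaled, these were 6.16 and 7.91 times the mean, a ratio of 1.28 (0.708 to 2.41). Its −log10 q was 3.45 against 15.0 in the knockout, while its background was the higher in the control, at 2.03 against 1.28 times the mean.

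The 5 pairs had a median of -0.02 on the log2 scale, knockout over control, and ranged from -0.47 to 0.62. All 5 intervals for counting error included 0. The medians over 9910 pairs of chromosome 5 and over all pairs of the genome were 0.10 and 0.04, inside the range of the 5. With the authors' fold in place of pileup the median of the 5 was 0.38, the opposite sign, as the fold is also divided by the local background.

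**Figure D5:**
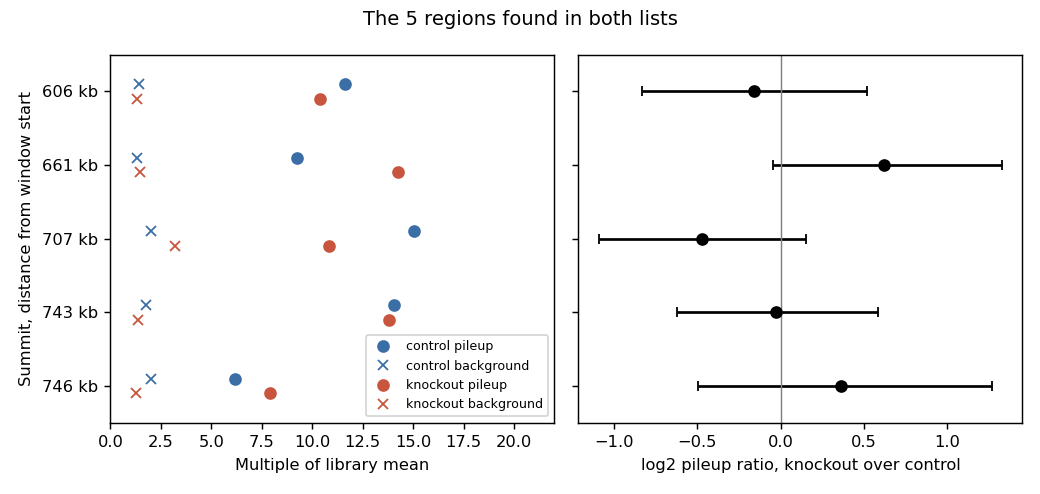
The 5 regions found in both lists, by distance of the control summit from the start of the window. Left, pileup (circles) and local background (crosses) as multiples of the library mean in the control and the knockout; right, log2 ratio of scaled pileup, knockout over control, with exact 95% intervals for counting error, all 5 of which include 0.

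Knockout-only peaks made up most of the knockout members. None of the 5 control peaks lacked a knockout counterpart, where 12.1% of all control peaks did. Of the 14 knockout peaks 9 (64.3%, Clopper-Pearson 35.1 to 87.2) overlapped no control peak, where the share over the genome was 23.9%. They were all 4 alpha peaks, the beta peak, the peak between beta and gamma and 3 of 8 in gamma. With a fold of at least 5 required in both lists, 3 of 4 control and 3 of 6 knockout peaks overlapped the other list. No share over the genome is given for that setting. Among the strong peaks, those with a −log10 q of at least 10, 4 of 9 knockout peaks (44.4%, 13.7 to 78.8) were knockout-only, an interval that holds the 14.9% of the genome, and 0 of 4 control peaks were control-only, where the share over the genome was 3.24%. The 4 knockout-only peaks depend on the cut: they were 0 of 3 at a −log10 q of 20 or with the knockout scaled to the control's mean pileup, and 9 of 14 at a −log10 q of 5. For strong peaks the share over the genome is given only at the cut of 10 without scaling. Whether the other counts depart from the whole list thus cannot be told. Sparse windows had more such peaks in general. In the other 58 windows of chromosome 5 with 14 knockout peaks or fewer, 131 of 299 knockout peaks (43.8%) and 67 of 198 strong ones (33.8%) were knockout-only. Both values lie inside the intervals of the locus.

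The alpha peaks of the knockout were of 2 kinds. The first 3, at 140167282 to 140167837, 140222360 to 140222728 and 140256412 to 140256711, had pileups of 41 (29.4 to 55.6), 45 (32.8 to 60.2) and 39 (27.7 to 53.3), or 9.27, 10.2 and 8.82 times the mean. They stood on local backgrounds of 3.62, 3.19 and 2.86 times the mean, and 3.40% of all knockout peaks had a background of at least 2.8 times the mean. In the caller's model such a background comes from the input library where one is supplied. Whether it was supplied is not given in the sources used here. On these backgrounds the folds of the 3 peaks were low, at 2.47, 3.04 and 2.93. Their −log10 q of 5.90, 9.24 and 7.64 kept all 3 below the strong class. The part of the local background in these calls was not tested. The fourth, at 140384973 to 140385290, had a lower pileup of 28 (18.6 to 40.5), 6.33 times the mean, but a background at the genome-wide mean, a fold of 5.35 and a −log10 q of 12.4.

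Beta, with its 16 genes, held the single knockout peak at 140455846 to 140456151. Its pileup was 23 (14.6 to 34.5), 5.20 times the mean, with a fold of 4.42 and a −log10 q of 8.58. The peak between beta and gamma, at 140696942 to 140697298, was similar, with a pileup of 25 (16.2 to 36.9), 5.65 times the mean, and a −log10 q of 10.0. Both stood on a background at the genome-wide mean, and both lay in the lowest 14% of knockout peaks by pileup (7.75% and 13.9% of the list were lower).

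The knockout-only peaks of gamma lay at 140797396 to 140797757, 140879755 to 140880083 and 140890464 to 140890794. Their pileups were 34 (23.5 to 47.5), 21 (13.0 to 32.1) and 42 (30.3 to 56.8), or 7.69, 4.75 and 9.49 times the mean. The middle one was the weakest peak of the locus by this measure, with a −log10 q of 7.19, and the outer ones were strong, at 14.1 and 13.1. The last of them was 1.44 kb from the nearest control peak, and the nearest control peak of the other 8 knockout-only peaks was at least 12.2 kb away.

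The 9 regions were also scaled to the control's mean pileup. With pileup and background divided by 1.51, all 9 had a −log10 p above the lowest in the control list, 3.24, with values from 5.20 to 10.7. The same held for 99.5% of the 70955 knockout-only peaks of the genome, so it does not set the locus apart. This scaling gives the expected pileup alone, without the scatter of counting, without the width a peak needs and with the knockout's own local background. None of the 4 strong ones kept a −log10 q of 10 after it. On a background at the genome-wide mean the weakest control peak of the whole list had a pileup of 10. The scaled pileups of the 4 knockout-only peaks on such a background were 18.5, 15.2, 16.5 and 13.9. Of control peaks on that background, 28.3%, 8.61%, 14.1% and 1.97% had a pileup no higher than these. The first 3 alpha peaks scaled to 27.1, 29.7 and 25.8. Control peaks with backgrounds within 5% of theirs had lowest pileups of 24, 20 and 19, and 3.88%, 12.4% and 6.26% were no higher. The outer gamma peaks scaled to 22.5 and 27.8, with lowest control pileups of 11 and 15, and 39.5% and 32.6% were no higher.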

How the data were processed

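MeDIP-seq was done on 4 libraries, an input and a 5-methylcytosine library for each of 2 genotypes, 1 library per group. Per the submitters' processing notes, BWA aligned the reads to hg19 and MACS2 called the peaks; their settings are not given in the sources used here. Peaks were deposited as 1 list per genotype, and the lists were matched to samples by the words of their names. The authors' pileup signal is a whole number of fragments at the summit, with no scaling across libraries. Fold enrichment, as the authors deposited it, divides pileup plus 1 by local background plus 1, a ratio. Significance was deposited as −log10 p-values and q-values. Positions count from 1. The peak numbers in both lists ran without a break.

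Local background was recomputed as pileup plus 1, divided by the fold, minus 1. Its lowest value, the genome-wide mean in the caller's model, was used to scale pileups between libraries, since depths were not listed; a change common to the whole genome cannot be seen after this scaling. From it, the Poisson upper tail matched every listed −log10 p to within 0.000573. Peaks with at least 1 bp in common counted as shared, and those matching a single peak in each direction formed pairs. Strong peaks had a −log10 q of at least 10. Intervals are exact at the 95% level and cover counting error only, since PCR copies are not independent molecules. Every peak of the locus is described; the rule for named peaks (the strongest, longest, most changed and list-only strong peaks, and the longest empty stretches) was written for a larger set. The window, the subgroups and the comparisons were chosen with earlier results of these data known. Python 3.11.15, pandas 2.3.3 and scipy 1.17.1 were used, and the scripts were tested on simulated data.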

Additional observations from a re-analysis of the deposited data

How the results depend on the processing

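Of 66 alternatives over 16 results, 56 stayed within 1.5 times (counts, lengths and densities) or within a 95% counting interval (shares, and for the median log2 ratio that of the summed pileups of the 5 pairs, -0.26 to 0.32), and 10 left these bounds. With the authors' fold in place of pileup the median log2 ratio of the 5 pairs, for the locus and for gamma, was 0.38 and so changed sign from -0.02. Counts and lengths cannot change sign. Requiring a fold of at least 5, which shortens the lists by construction, left 6 knockout peaks covering 3747 bp, with 0.4 per 100 kb in alpha, 0 in beta and 2.5 in gamma. Where strong meant a −log10 q of 5, the knockout-only strong peaks numbered 9, and at 20 they numbered 0, with no share over the genome given at these cuts. With the knockout scaled to the control's depth they also numbered 0, because none kept a −log10 q of 10. With equal numbers of peaks in both lists the locus held 12 knockout peaks. The 5 control peaks remained 5 by summit position, and 4 had a fold of at least 5. Equal numbers could not change the control values, since the control list is the shorter one and was kept whole. The control counts of 0 in alpha and beta could not rise under any setting used. Nor could the 0 control-only strong peaks at a −log10 q of 20. These fixed outcomes are counted among the 56. Gamma medians equalled those of the locus, since all pairs lay in gamma, and so were counted again among the 66. Alpha and beta had no pairs and gave no median. Library depths were not listed. No paired analysis was possible because no group had a second library.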
